A study of Mus musculus with 4 samples.

Results

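The genes described here are 10 markers of macrophages, read in RNA of mouse embryonic fibroblast cultures: Adgre1, Csf1r, Mrc1, Cx3cr1, Itgam, Cd14, Aif1, Ptprc, Cd68 and Lyz2. Every non-control array probe whose RefSeq accession belongs to one of these genes was taken, whatever its signal. This gave 13 probes for 8 of the 10 genes, 5 of them with 2 probes and 3 with 1, among 17466 genes with a probe. Cd68 and Lyz2 had no matched probe and were not analysed here. Of the 8 genes, 7 were bright enough to be tested, among 13847 genes tested.

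Mouse embryonic fibroblasts (MEFs) are primary cells grown from dissociated embryos, so a culture can hold other embryonic cells beside fibroblasts. The comparison is between growing cells at passage 2 and cells at passage 7, when replicative senescence, a durable stop of division after repeated passaging, had set in. Both passages came from cultures kept in the same serum-containing medium. No genotype, strain, embryonic age or treatment is named in the labels. Each passage was read on 2 one-colour Agilent arrays, and per the labels the RNA of 3 independent cultures was pooled before hybridisation. Every p-value below therefore measures only how far the 2 arrays of a passage differed, which can be technical. All 4 arrays lay on 1 slide and each passage had its own positions there, so slide position cannot be told apart from passage.

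Macrophages are phagocytes that enter embryonic tissues early in development and remain there as resident cells. Their survival depends on the receptor kinase CSF1R and its ligands CSF1 and IL34, which fibroblasts and other stromal cells supply. The transcription factor PU.1, encoded by Spi1, drives much of the myeloid program, and the surface proteins ADGRE1, CD11b (Itgam), CX3CR1 and the mannose receptor CD206 (Mrc1) are used to recognise the cells.

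The letters of 3 of the promoters are given first, because PU.1 recognises a purine-rich core. Whether the number of matches goes with the RNA changes was not tested. Shown are the 250 bases before the annotated start, from RefSeq on build GRCm38.p6, read in the direction of the gene. Capitals mark GAGGAA or its reverse complement TTCCTC, the form of the core that was searched on both strands. Mrc1 lies on the plus strand at chr2:14229164-14229413, Itgam on the plus strand at chr7:128062390-128062639 and Cx3cr1 on the minus strand at chr9:120068297-120068546.
Mrc1: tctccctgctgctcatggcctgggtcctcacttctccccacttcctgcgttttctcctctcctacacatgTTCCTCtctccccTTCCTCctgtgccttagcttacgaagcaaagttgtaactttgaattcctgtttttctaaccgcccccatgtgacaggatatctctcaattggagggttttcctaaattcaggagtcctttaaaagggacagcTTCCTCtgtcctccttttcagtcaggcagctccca
Itgam: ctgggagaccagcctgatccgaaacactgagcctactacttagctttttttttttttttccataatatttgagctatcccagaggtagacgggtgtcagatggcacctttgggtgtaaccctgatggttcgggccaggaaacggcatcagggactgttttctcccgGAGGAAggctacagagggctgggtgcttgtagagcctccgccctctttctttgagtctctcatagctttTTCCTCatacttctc
Cx3cr1: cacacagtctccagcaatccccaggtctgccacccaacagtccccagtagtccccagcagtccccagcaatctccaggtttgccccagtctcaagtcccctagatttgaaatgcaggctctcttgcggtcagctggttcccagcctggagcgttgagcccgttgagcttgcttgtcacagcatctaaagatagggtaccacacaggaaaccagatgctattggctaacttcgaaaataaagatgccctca
The Mrc1 window held 3 matches, beginning 180, 167 and 35 bases before the start. The Itgam window held 2 matches, beginning 84 and 15 bases before the start, and the Cx3cr1 window held 0. Of 32851 promoters of this length, 23.3% held at least 1 match. A match is a description of letters and not a binding site. The reference table gave a promoter for 7 of the 10 markers, and it had no entry for Adgre1, Csf1r and Cd14. Among those not shown, the Aif1 and Cd68 windows held 1 match each, the Lyz2 window 0, and the windows of Ptprc 0 and 1.

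Levels below are log2 of the processed signal minus the 75th percentile of that array, so 0 is the brightness of the spot at that percentile. Levels of different probes are not compared with each other. A gene was tested where both arrays of either passage read its brightest probe well above background. The call rule was an adjusted p below 0.05 from limma, with Benjamini-Hochberg adjustment over all genes tested, and a change of at least 2-fold. Exact permutation of 2 arrays against 2 cannot give a p below 0.333, so the tests rest on limma's spread shared across genes. Passages that do not overlap on a probe reach that p and no lower. The share of all genes tested whose passages do not overlap was not counted.

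Of the 7 markers tested, 4 fell from passage 2 to passage 7 and 0 rose. These were Mrc1, Adgre1, Cx3cr1 and Csf1r, by between 2.39-fold and 6.2-fold. Among all genes tested, 19.4% were called in either direction and 9.42% were called lower at passage 7. The median change of the 7 markers was -1.26 on the log2 scale, against 0.20 for all genes tested. All 7 had a lower mean at passage 7, as did 39.4% of all genes tested. Adgre1, Itgam and Aif1 were well above background on both arrays only at passage 2. For these genes the filter favours a lower mean at passage 7, which also bears on the median of the 7. The other 4, with Cd14 at -0.02, were well above background on all 4 arrays. Counted by probe, 11 of the 13 were tested and 7 were called lower, where 10.7% of all probes tested were called lower. In bulk RNA, fewer macrophages in the culture and less of each transcript per macrophage cannot be told apart. Which cells of the culture carried these transcripts was not tested.

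**Figure D1:**
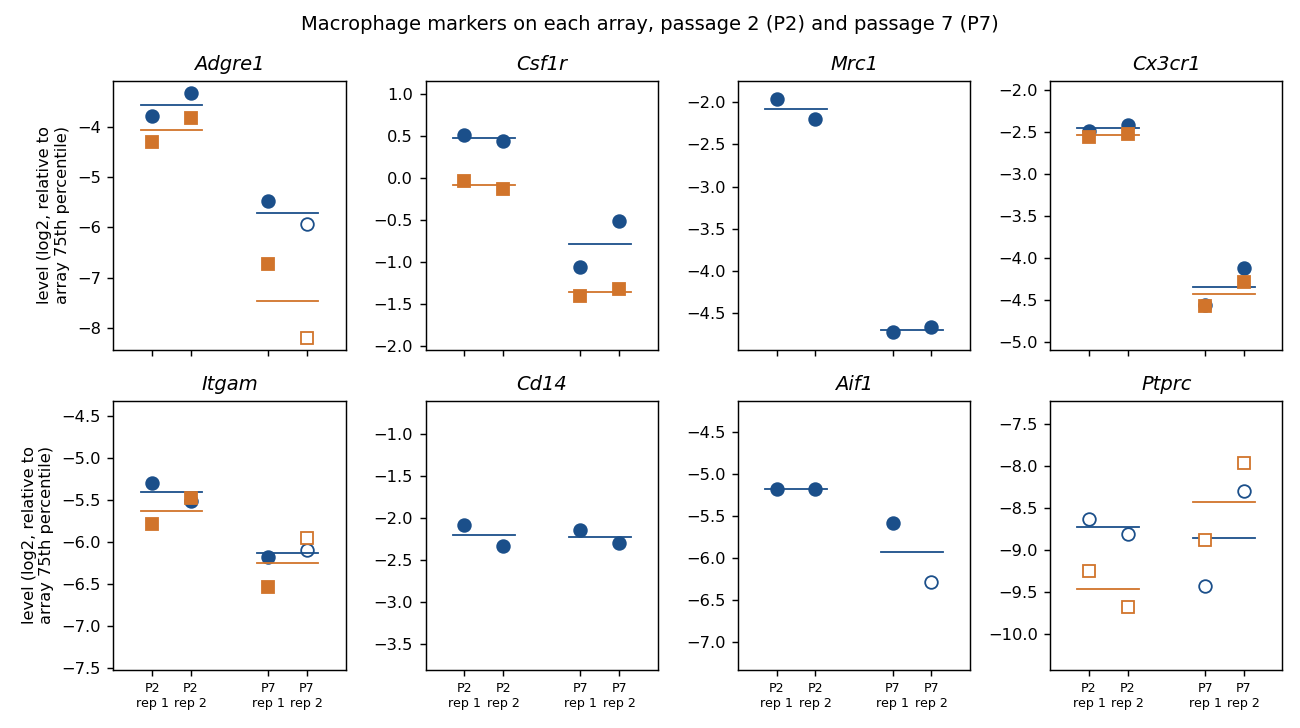
Level of each probe of the 8 matched macrophage markers on each of the 4 arrays, on the log2 scale relative to the array's 75th percentile. Blue circles are the brightest probe of a gene, orange squares its other probe, lines the mean of the 2 arrays of a passage, and open symbols spots not well above background. Both passage 7 arrays lie below both passage 2 arrays for Mrc1, Adgre1, Cx3cr1 and Csf1r, and also for Itgam and Aif1, which were not called. The passages overlap for Cd14.

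The receptor that macrophages need for survival, Csf1r, gave the mildest of the 4 falls. Its brightest probe read 0.51 and 0.45 at passage 2 and -1.05 and -0.50 at passage 7. The passages did not overlap, and the 2 arrays of passage 7 lay further apart than those of passage 2. The change was -1.26 ± 0.25 (SE, 2 arrays per passage), a 2.39-fold fall (limma, adjusted p = 0.028). The other Csf1r probe read -0.04 and -0.13 at passage 2 and -1.40 and -1.32 at passage 7, and it too was called lower, by 1.28 ± 0.18 (SE) on the log2 scale. The fall of the gene missed the threshold when any single array was left out, with changes of -1.23 and -1.29 without passage 2 replicate 1 and 2, and -0.98 and -1.53 without passage 7 replicate 1 and 2. The limma adjusted p in these 4 fits was between 0.057 and 0.13.

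Mrc1 encodes the mannose receptor, an endocytic receptor of many tissue-resident macrophages that some endothelial cells also carry. Its single probe read -1.95 and -2.19 at passage 2 and -4.74 and -4.68 at passage 7. Within each passage the arrays lay close together, and the passages did not overlap. Mrc1 fell by 2.63 ± 0.19 (SE) on the log2 scale, or 6.2-fold (limma, adjusted p = 0.0052), and 176 of the 13847 genes tested had a larger fall. This was the largest change of the brightest probes of the 7 tested markers.

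Adgre1 encodes an adhesion receptor of the EGF-like module family whose antibody is the one most used to identify mouse macrophages. Its brightest probe read -3.78 and -3.33 at passage 2 and -5.48 and -5.94 at passage 7, where only replicate 1 was well above background. The passages were separated by more than the spread within either. The change was -2.15 ± 0.27 (SE), a 4.43-fold fall (limma, adjusted p = 0.0117). The other probe read -4.31 and -3.83 at passage 2 and -6.72 and -8.19 at passage 7. Its change was -3.39 ± 0.52 (SE), but again only replicate 1 of passage 7 was well above background. With the reading of replicate 2 raised to the lowest signal well above background on that array, a setting added after seeing the data, the change of this probe was -2.29 and that of the brightest probe stayed at -2.15.

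Cx3cr1 encodes the receptor for fractalkine, carried by monocytes, microglia and many fetal macrophages. Its brightest probe read -2.49 and -2.41 at passage 2 and -4.56 and -4.12 at passage 7. All 4 arrays were well above background and the passages did not overlap. The change was -1.89 ± 0.23 (SE), a 3.70-fold fall (limma, adjusted p = 0.0104). The other probe gave nearly the same readings, -2.56 and -2.52 against -4.57 and -4.28, and the same change of -1.89 ± 0.20 (SE).

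Itgam encodes CD11b, the alpha chain of the integrin complement receptor of macrophages, monocytes, neutrophils and natural killer cells. Its brightest probe read -5.30 and -5.52 at passage 2 and -6.18 and -6.10 at passage 7. Both passage 7 arrays lay below both passage 2 arrays, but the probe was dim and at passage 7 only replicate 1 was well above background. The change of -0.73 ± 0.19 (SE) did not pass (limma, adjusted p = 0.0521, under 2-fold). Quantile normalisation gave -1.03 with an adjusted p of 0.025 from limma, which passes. The other probe read -5.79 and -5.48 against -6.54 and -5.95, and its change of -0.61 ± 0.28 (SE) did not pass.

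Aif1 encodes IBA1, a calcium-binding protein of the macrophage cytoskeleton. Its single probe read -5.19 and -5.18 at passage 2 and -5.58 and -6.29 at passage 7, and replicate 2 of passage 7 was not well above background. The 2 passages did not overlap, yet the 2 readings at passage 7 were far apart. The change of -0.75 ± 0.29 (SE) did not pass (limma, adjusted p = 0.122).

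Cd14 encodes the co-receptor that hands lipopolysaccharide to TLR4, and fibroblasts can express it as well as myeloid cells. Its single probe read -2.08 and -2.33 at passage 2 and -2.14 and -2.30 at passage 7. The 2 passages overlapped on this probe, which was well above background on every array. The change was -0.02 ± 0.20 (SE; limma, adjusted p = 0.95), and its sign turned under some settings, as when passage 2 replicate 1 was left out (0.10).

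Ptprc encodes CD45, the phosphatase carried by nearly all nucleated blood cells. Neither of its 2 probes was well above background on any array. The brighter one read -8.64 and -8.81 at passage 2 and -9.43 and -8.30 at passage 7, and the other read -9.26 and -9.69 against -8.88 and -7.97. These readings hold no measured level, so no change is given for CD45. On the same arrays, Csf1r, Cx3cr1, Mrc1 and Cd14 were well above background on all 4.

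**Figure D2:**
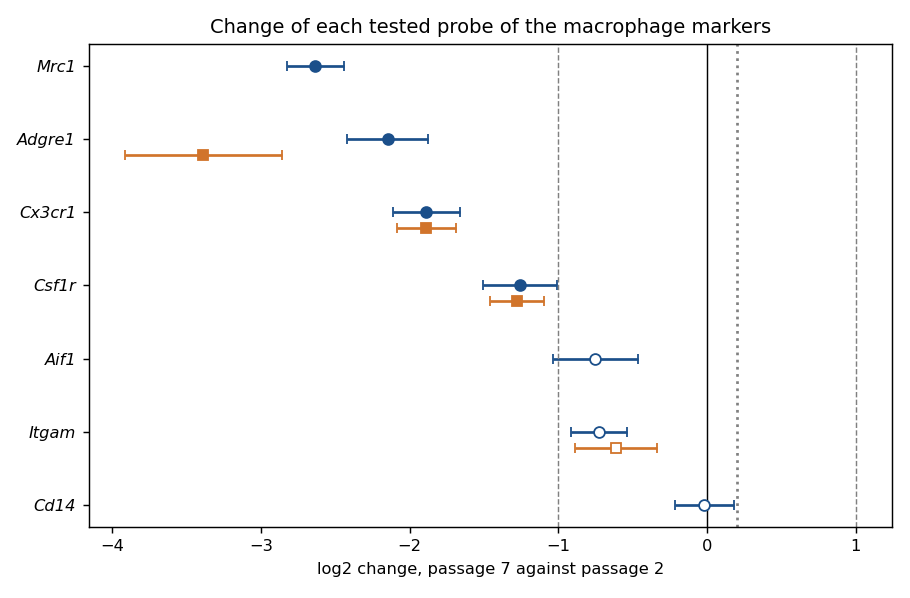
Change from passage 2 to passage 7 on the log2 scale for each of the 11 tested probes of the macrophage markers, with the standard error. Blue circles are the brightest probe of a gene and orange squares its other probe, filled where called and open where not; dashed lines mark 2-fold and the dotted line the median of all genes tested, 0.20. The 7 filled symbols are probes of Mrc1, Adgre1, Cx3cr1 and Csf1r, all left of the lower 2-fold line.

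The calls of the 4 falls were not all kept under settings with another background correction, and the cause was not tested. With limma's normexp background correction of the median spot intensity, 0 of the 7 markers were called when scaled by the 75th percentile and 2, Csf1r and Mrc1, when quantile-normalised. In the first of these settings 0 of all 13847 genes tested were called, so that count is not particular to the markers. In the authors' value table, tested the same way, the same 4 genes were called lower, with Mrc1 at -2.18, Cx3cr1 at -1.62, Adgre1 at -1.47 and Csf1r at -1.47. The falls of Adgre1, Cx3cr1 and Mrc1 passed with each array left out in turn. Without passage 7 replicate 1, that of Adgre1 rests on a passage 7 reading not well above background.

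**Figure D3:**
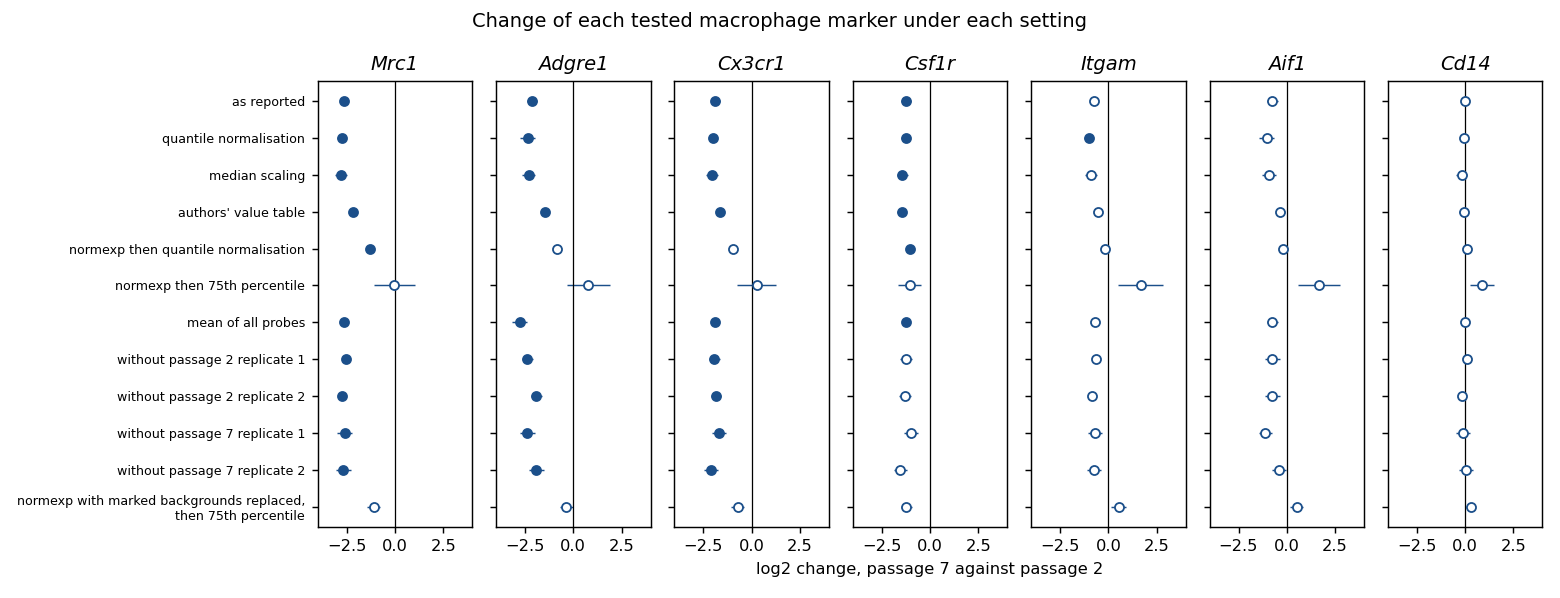
Change from passage 2 to passage 7 on the log2 scale for each tested marker (columns) as reported and under 11 other settings (lines), with standard errors as bars and filled circles where the gene was called. Mrc1, Adgre1 and Cx3cr1 are filled with each array left out, under the 2 other scalings of the processed signal and in the authors' value table, and 0 circles are filled after either normexp correction that was scaled by the 75th percentile. Without passage 7 replicate 1, the passage 7 reading of Adgre1 was not well above background.

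The ligands and partners of these receptors were called in both directions. Of 13 such genes on the array, 12 were tested, 2 rose, 1 fell, and the median change was 0.13. For this list and those below, the shares over all genes tested were 19.4% called in either direction and 9.42% called lower. Rises numbered 1384 of 13847. The lists carry no test, so their counts are not read as departing from these shares. Csf1, the ligand that sustains macrophages, read 4.23 and 4.40 at passage 2 and 5.05 and 5.31 at passage 7. Its change of 0.87 ± 0.20 (SE) had an adjusted p of 0.0396 from limma but stayed under 2-fold and was not called. The second CSF1R ligand, Il34, changed by 0.13 ± 0.20 (SE; limma, adjusted p = 0.648), and the CX3CR1 ligand Cx3cl1 by -0.36 ± 0.19 (SE; limma, adjusted p = 0.212).

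Itgb2, the beta chain that pairs with CD11b, fell by 1.54 ± 0.33 (SE) on the log2 scale (limma, adjusted p = 0.0335). Its other 2 probes gave -0.37 and -0.82, neither of them called, and the call was lost when passage 2 replicate 1 or 2 or passage 7 replicate 2 was left out. The signalling adaptors Tyrobp and Fcer1g, which carry activating signals of myeloid receptors, both gave -0.83 (limma, adjusted p = 0.051 and 0.0692), and the dimmer Fcer1g probe, at -1.0, was called. On the side of the CD14 and integrin partners, Ly96, the MD-2 subunit of the lipopolysaccharide receptor, rose by 1.56 ± 0.29 (SE). Icam1, a ligand of beta 2 integrins, rose by 1.35 ± 0.23 (SE). Both rises missed the threshold without passage 7 replicate 1 and without passage 7 replicate 2, and that of Ly96 also without passage 2 replicate 2.

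Among the transcription factors of macrophages, 13 genes were on the array and 12 were tested, of which 2 rose and 2 fell, with a median change of -0.28. Spi1, which encodes PU.1, read -0.90 and -1.30 at passage 2 and -1.16 and -0.15 at passage 7. The passages overlapped, and the change of 0.44 ± 0.39 (SE) did not pass (limma, adjusted p = 0.442). Maf encodes a factor found in mature macrophages and also in other embryonic cell types. Maf fell by 1.14 ± 0.19 (SE), a call lost when passage 2 replicate 2 or either passage 7 array was left out.

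The 2 rises were Tfec and Nr1h3. Tfec, a relative of Mitf known from macrophages and osteoclasts, read -4.82 and -4.69 at passage 2 and -1.10 and -1.07 at passage 7. It rose by 3.66 ± 0.18 (SE; limma, adjusted p = 0.005), and its other 2 probes gave 3.87 and 3.73. Nr1h3, the oxysterol receptor LXR alpha, rose by 2.01 ± 0.18 (SE).

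Of the wider set of macrophage surface and phagocytic receptors, none rose and several fell. Of 30 on the array, 22 were tested, 5 fell and 0 rose, with a median change of -0.61. Of all genes tested, 9.42% were called lower. The 5 falls include Fcgr1, which was not well above background on either passage 7 array. With those readings raised to the lowest signal well above background on each array, its change was 0.21. The fall of Fcgr1 is therefore not a measured one. Csf2rb, the shared beta chain of the receptors for GM-CSF and interleukin-5, fell by 2.53 ± 0.29 (SE) on the log2 scale. At passage 7 only replicate 1 of Csf2rb was well above background; with replicate 2 raised to the lowest such signal the change was -2.06, and the other probe, called too, gave -1.54. Folr2, a folate receptor of tissue-resident macrophages, fell by 1.65 ± 0.20 (SE) with only replicate 1 of passage 7 well above background, and C3ar1, the receptor of the complement fragment C3a, fell by 1.61 ± 0.20 (SE). The call of Csf2rb held with each array left out, while those of Folr2 and C3ar1 were lost without passage 7 replicate 2. Without passage 7 replicate 1, the call of Csf2rb rests on a passage 7 reading not well above background. The Fc receptor gene Fcgr3 changed by -0.73 ± 0.20 (SE; limma, adjusted p = 0.0576). With 1 array left out, 3 or 4 of the receptors fell, and 2 fell when all 4 arrays had to be well above background.

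Of 24 secreted, lysosomal and oxidase genes of macrophages, 22 were tested, 2 rose and 5 fell, and the median change was -0.26. The 5 falls include Pf4, not well above background on either passage 7 array, and Ncf1, well above it there only on replicate 1. With dim readings raised to the lowest signal well above background on each array, their changes were -2.76 and -0.92. Ctss, the cathepsin that processes antigen in myeloid cells, read -0.47 and -0.20 at passage 2 and -3.0 and -2.86 at passage 7, and it fell by 2.60 ± 0.20 (SE; limma, adjusted p = 0.0054). Mpeg1, which encodes the pore-forming perforin-2 of macrophages, fell by 1.42 ± 0.19 (SE), and the cytokine Tnf fell by 1.35 ± 0.22 (SE). Without passage 7 replicate 2 the calls of Mpeg1 and Tnf were lost, and that of Tnf also without passage 7 replicate 1.

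The complement genes C1qa and C1qb, which tissue macrophages express strongly, changed by -0.61 ± 0.28 (SE; limma, adjusted p = 0.175) and -0.96 ± 0.31 (SE; limma, adjusted p = 0.081). C1qb passed, at -1.35, when passage 2 replicate 2 was left out. Arg1, an arginase of alternatively activated macrophages that other cells can also express, read -7.68 and -7.46 at passage 2, where 1 of the 2 arrays was well above background, and -4.36 and -4.33 at passage 7. It rose by 3.22 ± 0.19 (SE), and the lysosomal protease Ctsb, which fibroblasts also make, rose by 1.28 ± 0.18 (SE), a call lost when either passage 7 array was left out. Between 2 and 4 of these genes fell with 1 array left out, the lowest count being without passage 7 replicate 2.

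Genes shared by most leukocytes gave a median change of -0.85. Of 23 on the array, 22 were tested, 6 fell and 2 rose, where 9.42% of all genes tested were called lower. The 6 falls include Dock2 and Rac2, which were not well above background on either passage 7 array. With those readings raised to the lowest signal well above background on each array, their changes were 0.03 and 0.48. Neither fall is therefore a measured one. Vav1, an exchange factor of blood-cell receptors, fell by 1.82 ± 0.18 (SE), Plek, the pleckstrin gene, by 1.68 ± 0.42 (SE), and the phosphatase gene Inpp5d (SHIP1) by 1.63 ± 0.23 (SE). At passage 7 only replicate 1 of Plek was well above background, and with replicate 2 raised to the lowest such signal the change was -1.18. Vav1 held with each array left out, while Plek held only without passage 7 replicate 1. The passage 7 reading of Plek that then remained was not well above background. Inpp5d was lost without passage 2 replicate 2 and without passage 7 replicate 1. The rise of Spn, which encodes the leukocyte sialoprotein CD43, was 1.20 ± 0.27 (SE), and its other probe gave 0.07 with no call. The call of Spn held only without passage 2 replicate 1. The other rise was Cd53, a leukocyte tetraspanin named after its values were seen; its brightest probe was not well above background at passage 2 and its other probe was so on 1 array of each passage, so no size is given. Without passage 2 replicate 2 the falls numbered 2, as they did with no filter on dim probes.

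These wider counts also moved with the processing. After normexp with the 75th percentile, 0 genes of these lists were called, as were 0 of all genes tested. After normexp with quantile normalisation, and again with marked backgrounds replaced, the receptors that fell numbered 0. The falls of secreted, lysosomal and oxidase genes numbered 1 in both of these settings, those of leukocyte genes 1 and 0, and those of the transcription factors 2 and 2. Median scaling gave more falls, 8 receptors, 8 secreted, lysosomal and oxidase genes and 10 leukocyte genes.

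**Figure D4:**
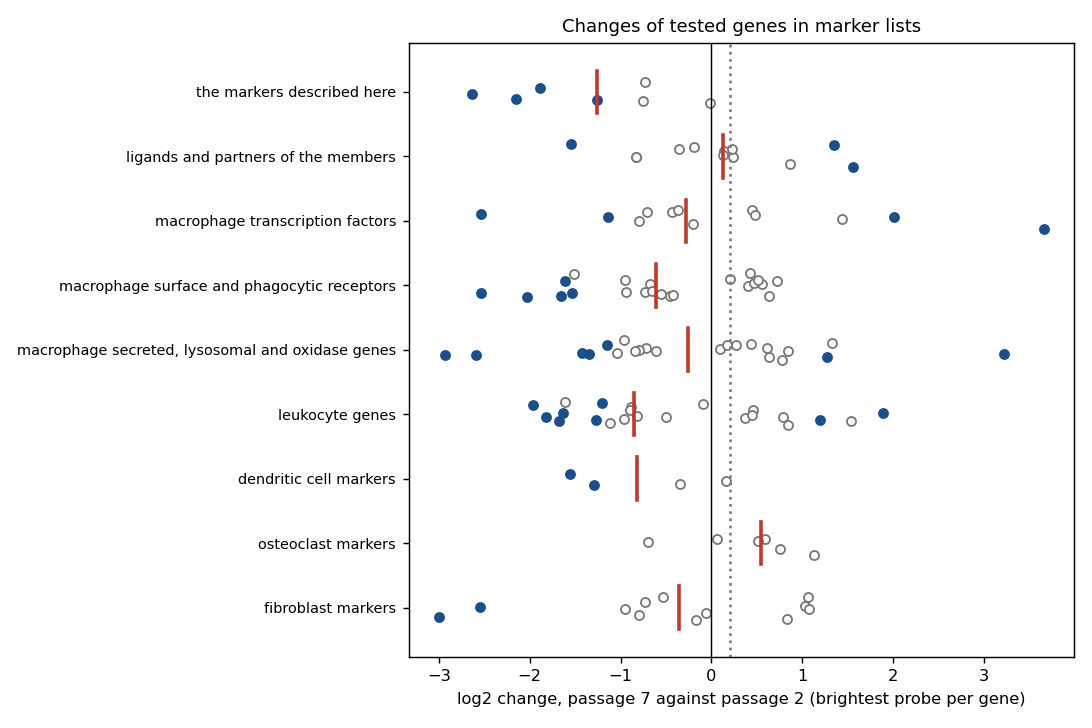
Change from passage 2 to passage 7 on the log2 scale of every tested gene in 9 marker lists, 1 circle per gene by its brightest probe, filled where called. The red bar is the median of the list, the solid line is 0 and the dotted line the median of all genes tested, 0.20; the median of the 7 tested markers lies at -1.26 and that of the osteoclast list at 0.55.

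Markers of other cell types were counted in the same way, and their part in the falls of the macrophage markers was not tested. Dendritic cell markers are the closest to macrophages, and 4 of 8 were not well above background on any array. Of the 4 tested, 2 fell, Batf3 by 1.56 ± 0.31 (SE) and Zbtb46 by 1.29 ± 0.18 (SE), both transcription factors. The call of Batf3 was lost with each of the 4 arrays left out, and that of Zbtb46 with either passage 7 array left out. Under each of the 3 normexp settings 0 fell. The summed level of that list, in multiples of the array's 75th percentile, was 0.65 and 0.62 at passage 2 and 0.26 and 0.31 at passage 7. Such a sum is weighted to the brightest probes, and not every list had a lower sum at passage 7. The receptors gave 6.40 and 6.75 against 6.10 and 5.42, and the leukocyte genes 14.1 and 10.9 against 11.4 and 11.1. The secreted, lysosomal and oxidase genes gave 48.8 and 35.9 against 56.5 and 62.7. Of 9 osteoclast markers on the array, 6 were tested and 0 were called, with a median of 0.55. Of 8 neutrophil markers, 4 were tested and 0 were called, and of 6 B cell markers, 4 were tested and 0 were called. Of 6 tested mast cell markers, 1 rose (Cma1) and 1 fell (Kit). Of 4 tested T cell markers 1 fell (Lck), and of 2 tested NK cell markers 1 rose (Eomes). Kit and Lck were not well above background on either passage 7 array, so the sizes of their falls were not measured. None of the 5 tested erythroid markers or the 3 tested megakaryocyte markers was called.

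Markers of cells outside the blood were called in both directions. Of 7 tested endothelial markers, 1 rose (Emcn). Of 8 epithelial markers, all tested, 3 fell and 2 rose, with a median of -1.30. The falls were the keratin genes Krt14 by 2.33 ± 0.32 (SE), Krt18 by 1.91 ± 0.17 (SE) and Krt8 by 1.90 ± 0.25 (SE). The rises were the claudin genes Cldn4 by 2.22 ± 0.36 (SE) and Cldn3 by 1.23 ± 0.19 (SE). Under both normexp settings scaled by the 75th percentile, 0 epithelial markers were called. Their summed level was 1.22 and 1.06 at passage 2 and 0.37 and 0.49 at passage 7. The labelled cell type was checked with fibroblast markers, of which 12 were on the array, all 12 tested. Of these 2 fell and 0 rose, with a median of -0.35, where 19.4% of all genes tested were called in either direction. That count rests on the brightest probes. The dimmer Thy1 probe was called higher, at 1.09, and both dimmer Fbn1 probes were called lower, at -1.94 and -2.23. All 12 were well above background on all 4 arrays. Lum, a proteoglycan of connective tissue, fell by 3.00 ± 0.20 (SE) and Pdgfra by 2.54 ± 0.26 (SE), while the collagen genes Col1a1 (1.04 ± 0.36, SE; limma, adjusted p = 0.101) and Col1a2 (-0.73 ± 0.20, SE; limma, adjusted p = 0.0601) did not pass.

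The arrays differed in brightness. The signal at the 75th percentile, before log2, was 1024 and 1404 at passage 2 and 964 and 402 at passage 7. The share of spots well above background ran from 65.8% to 72.7% and was lowest for passage 7 replicate 2. That array is also the one on which Adgre1, Itgam and Aif1 were not well above background, and its part in their changes was not tested beyond leaving it out. Over all genes tested, 1384 rose and 1305 fell. The balance shifted towards falls under median scaling (1237 rises, 1767 falls), under quantile normalisation (1104 rises, 1513 falls) and with the values the authors deposited (732 rises, 1340 falls).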

How the data were processed

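Mouse embryonic fibroblast RNA of 2 passages was read on 4 one-colour Agilent arrays. Per the file headers, Feature Extraction 10.5.1.1 gave each deposited spot intensity, its processed form already background-subtracted, with deposited flags for outliers and for brightness over background. A value table that the authors deposited is on the log2 scale; its centring and background treatment are not given in the sources used here, and the submitters' processing notes name limma without a version.

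Log2 processed signal minus each array's 75th percentile over non-control spots was computed, outlier spots were left out (14 to 61 per array), and spots of a probe were averaged. Probes were named by RefSeq accession (97.6% of 31850 matched). The probe with the highest mean stood for a gene. Genes and probes were tested separately in R 4.3.3 by limma 3.58.1, using lmFit and eBayes (no covariate, two-sided), checked on simulated data. No spot was saturated, and the number of arrays limits the precision.

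Named genes are all markers, up to 3 rises and 3 falls per list and a set of ligands, partners, adaptors and collagens, of which Lyz1 and Pdgfrb had no matched probe. Results of some genes that this rule takes are left out. Lists carry no test. The markers and lists were chosen with earlier results of these data known. Normexp was planned on the mean signal and run on the median spot intensity, which the files list, with an offset of 50. Other alternatives were scaling, filter, choice of probe, variance model, replicate block and leaving out arrays.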

Additional observations from a re-analysis of the deposited data

How the results depend on the processing

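Across all genes, limma called 1384 higher and 1305 lower as reported. Counts of rises and falls moved by over 1.5 times under normexp with quantile normalisation (548 and 718), normexp with the 75th percentile (0 and 0), normexp with marked backgrounds replaced, chosen after seeing the data (721 and 479), and the replicate block (522 and 651). Rises alone moved with no filter on dim probes (897) and in the authors' value table (732). With arrays left out, 474 to 1965 genes rose and 613 to 1357 fell. For probes (2471 rises and 2725 falls), the values were 926 and 1360, 0 and 0, and 1310 and 951 under the 3 normexp settings in that order, 1236 rises in the authors' table, and 1040 to 3524 rises and 1484 to 3014 falls with arrays left out. The 4 falls among the macrophage markers became 2, 0 and 0 under the 3 normexp settings and 3 with each array left out, so that range is 3 to 3. The cause was not tested.

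Normexp with the 75th percentile turned the sign of Adgre1 (0.78), Cx3cr1 (0.25), Itgam (1.67), Aif1 (1.66), Cd14 (0.88), Itgb2 (1.1), Csf2rb (1.1), Folr2 (1.14), Mpeg1 (0.15), Tnf (1.25), Vav1 (0.22), Plek (1.42), Inpp5d (0.26) and Batf3 (0.59), none of them called. The median change of all genes tested was 0.49 in that setting, and Cx3cr1, Mpeg1, Vav1 and Inpp5d still lay below it. With marked backgrounds replaced, Itgam (0.53), Aif1 (0.51), Cd14 (0.29), Folr2 (0.015), Tnf (0.13) and Plek (0.24) turned, and with quantile normalisation after normexp, Cd14 (0.10). The median of all genes tested in these settings was 0.37 and 0.009, in that order. Leaving out arrays gave Cd14 -0.14 to 0.10, Il34 -0.010 to 0.28 and Spi1 -0.059 to 0.95. Il34 was -0.035 under median scaling and -0.0052 in the authors' table. Calls of several named genes beside the markers were lost with 1 array left out, as given above. The calls of Fcgr1, Dock2, Rac2, Cd53, Cma1, Kit, Lck, Eomes, Emcn, Cldn3 and Cldn4 were not checked gene by gene in this way.

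Replicate numbers are shared between passages, but RNA was pooled and the array differences of the 2 passages correlated at -0.17 across 13847 genes, so the numbers are not taken to pair the arrays. With the replicate block, Csf1r lost its call (limma, adjusted p = 0.0725) and Adgre1, Cx3cr1 and Mrc1 kept theirs. Crossed pairing, added after seeing the data, called 1659 genes higher, 1407 lower and 4 markers lower. Without the filter on dim probes Csf1r was not called (limma, adjusted p = 0.0644), and with all 4 arrays required above background Adgre1 was not tested. Dim signal limits what can be said of Ptprc, Itgam and Aif1.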
